A study of Mus musculus with 4 samples.

Results

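The genes described here encode proteins of the secondary and tertiary granules of neutrophils, or proteins made at the same late step of neutrophil maturation: Camp, Ltf, Lcn2, Ngp, Mmp8, Mmp9, S100a8, S100a9, Retnlg and Lrg1. They were chosen by gene name on the array, with earlier results of these data known. All probes with these names were kept. This gave 10 genes and 11 probes, out of 15116 named genes measured and 55675 probes with a value. All 10 genes were well above background on at least 1 array, so none was lost to the filter on dim probes.

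RNA came from LSK cells, the marrow fraction that lacks lineage markers, carries Sca-1 and Kit, and holds the blood stem cells and early progenitors. Male C57BL/6 mice of 4 genotypes were compared. These were Aspp1-/-p53-/- (Mx1-Cre(+)Aspp1-/-p53flox/flox), p53-/- (Mx1-Cre(+)p53flox/flox), Aspp1-/- and WT. All mice, those without Cre included, were injected with pIpC 5 times from 8 weeks of age, and cells were sorted 4 weeks afterwards, at 12 weeks. The series design gives 400 μg per injection for every genotype, while the sample labels read 403 μg for Aspp1-/-p53-/-, 402 μg for p53-/-, 401 μg for Aspp1-/- and 400 μg for WT. The Mx1 promoter that drives Cre answers to interferon, so deletion of p53 is not limited to LSK cells. RNA of 3 mice was pooled per genotype and put on 1 array, so no difference here has a spread between replicates. The errors given are those of the scanner's own error model for 1 hybridisation, and they hold no variation between mice.

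Neutrophils build their granules in sequence. Primary granule proteins such as myeloperoxidase are made by early committed progenitors, whereas secondary (specific) and tertiary (gelatinase) granule proteins are made later, as cells leave the cell cycle on the way to mature neutrophils. The transcription factor C/EBPε is required for the secondary granule programme in mice, with C/EBPα, PU.1 and Gfi1 acting earlier. Stem and early progenitor cells are not the usual site of this programme.

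Each gene was read by 60-base probes. The Camp pair of probes matters because the pair overlaps: 48 of 50 overlapping bases were identical, so their values are not independent. The 30 bases of each probe that hold the differing bases are shown here with those bases in capitals (A16G and T20C, counted from the 5′ end of the first probe).
Camp, first probe (positions 11 to 40): cagccAgagTagtaggcctgccttggcctg
Camp, second probe (positions 1 to 30): cagccGgagCagtaggcctgccttggcctg
The first probe lies at chr9:109749911-109749970 and the second starts at chr9:109749901, both on the minus strand (mm9). The probes of Ltf, Ngp and S100a8 are shown because these genes stand for a secondary granule protein, a gene read across a splice junction and a calprotectin subunit. All 3 are on the plus strand.
Ltf (chr9:110942873-110942932): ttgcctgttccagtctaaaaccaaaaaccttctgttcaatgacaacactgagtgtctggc
Ngp (chr9:110324266-110324814): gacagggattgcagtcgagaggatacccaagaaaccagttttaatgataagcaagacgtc
S100a8 (chr3:90473778-90473837): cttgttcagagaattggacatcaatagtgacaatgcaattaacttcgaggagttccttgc
The Ngp probe matches 60 bases of mRNA over a span of 549 bases of genome in mm9. Camp, Ngp and Ltf lie on the same stretch of chromosome 9, with 574.6 kb between the Camp and Ngp probes and 618.4 kb between the Ngp and Ltf probes. S100a8 and S100a9 lie 22.8 kb apart on chromosome 3.

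The regulatory sequence of the genes was read from RefSeq promoters (GRCm38.p6), which run from 250 bases before to 50 bases after the gene start. A promoter was at hand for 9 of the 10 genes, and the Mmp9 promoter was not analysed here. A C/EBP motif (TTGCNNAA, either strand) was present in 6 of the 9, namely Ltf, Lcn2, Ngp, S100a9, Retnlg and Mmp8, while 10.8% of 32851 promoters of that length hold it. The 250 bases before the start are printed for 4 of these, whose matches (in capitals) are the closest to the start or lie in secondary granule genes, and for Camp, which had no match.
Ltf (chr9:111019042-111019291, plus strand): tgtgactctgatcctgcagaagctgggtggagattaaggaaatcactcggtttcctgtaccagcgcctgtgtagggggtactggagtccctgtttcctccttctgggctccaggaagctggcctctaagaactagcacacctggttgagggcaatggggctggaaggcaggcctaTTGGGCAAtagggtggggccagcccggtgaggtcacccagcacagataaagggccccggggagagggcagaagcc
Lcn2 (chr2:32387740-32387989, minus strand): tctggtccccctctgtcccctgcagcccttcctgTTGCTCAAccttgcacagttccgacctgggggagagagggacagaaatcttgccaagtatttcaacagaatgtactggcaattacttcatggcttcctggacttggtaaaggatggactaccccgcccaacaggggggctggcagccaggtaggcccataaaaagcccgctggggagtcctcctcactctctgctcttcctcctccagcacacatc
Ngp (chr9:110419558-110419807, plus strand): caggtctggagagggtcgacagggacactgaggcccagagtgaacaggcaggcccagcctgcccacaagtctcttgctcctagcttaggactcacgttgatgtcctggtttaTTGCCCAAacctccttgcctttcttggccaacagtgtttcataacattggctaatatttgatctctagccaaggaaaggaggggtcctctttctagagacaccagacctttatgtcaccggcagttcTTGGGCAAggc
Mmp8 (chr9:7558179-7558428, plus strand): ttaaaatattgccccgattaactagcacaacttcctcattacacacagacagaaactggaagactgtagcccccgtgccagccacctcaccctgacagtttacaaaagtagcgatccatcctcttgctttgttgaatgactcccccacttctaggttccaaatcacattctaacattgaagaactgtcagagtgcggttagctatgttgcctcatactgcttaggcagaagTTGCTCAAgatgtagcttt
Camp (chr9:109849457-109849706, minus strand): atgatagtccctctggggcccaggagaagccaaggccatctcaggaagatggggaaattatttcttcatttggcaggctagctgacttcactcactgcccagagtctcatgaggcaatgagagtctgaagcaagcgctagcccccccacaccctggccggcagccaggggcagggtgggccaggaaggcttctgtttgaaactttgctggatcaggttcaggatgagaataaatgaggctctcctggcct
Ngp held 2 matches, starting at −138 and −11 from the gene start, Mmp8 held 1 at −19, Ltf 1 at −75 and Lcn2 1 at −216. A PU.1 motif (GAGGAA, either strand) was present in 4 of the 9 (Ltf, Lcn2, S100a8 and Mmp8), against 28.3% of all promoters, and an AP-1 motif (TGANTCA, either strand) in 0 of the 9, against 7.81%. The C/EBP, PU.1 and AP-1 searches describe letters in these windows and not binding.

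On the arrays, the deletions were visible in the targeted genes. Signals are given as scaled signal, the processed intensity divided by that array's 75th percentile, and can be compared between arrays for 1 probe but not between probes. Ppp1r13b, which encodes Aspp1, a protein that binds p53 and favours its pro-apoptotic targets, had a scaled signal of 3.85 in Aspp1-/-p53-/-, 22.0 in p53-/-, 3.76 in Aspp1-/- and 23.1 in WT cells. Trp53, which encodes p53, had 0.315 in Aspp1-/-p53-/-, 0.282 in p53-/-, 1.37 in Aspp1-/- and 1.28 in WT cells. Between 50.3% and 53.3% of probes were well above background per array, and no spot was saturated. The 4 arrays lay on 1 slide, with both Mx1-Cre arrays in 1 slide row and both others in the other row. Loss of p53, Mx1-Cre and slide row therefore cannot be told apart, whereas Aspp1-/-p53-/- against p53-/- and Aspp1-/- against WT are comparisons within a row and within Cre status.

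The granule genes measured on every array, all but Mmp9, were lower in Aspp1-/-p53-/- cells than in cells of each other genotype, by about 2- to 5-fold, and differed less among the other 3 genotypes. With a log2 difference of −1 or less as the rule of size (2-fold or more lower), 9 of 10 genes passed in Aspp1-/-p53-/- against WT cells, where 2.43% of all genes or transcripts did, or 1.46% of those well above background on both arrays. The median log2 difference of the 10 genes was −1.70, while that of all genes was 0.01. In neither single knockout did any of the 10 pass against WT. The genes were chosen with earlier results of these data known. Shares of all genes beside their counts, here and below, are thus a description and not a test.

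Among secondary granule genes, Camp encodes the cathelicidin CRAMP, an antimicrobial peptide. Its first probe had a scaled signal of 5.35 in Aspp1-/-p53-/-, 16.0 in p53-/-, 14.4 in Aspp1-/- and 16.0 in WT cells. The Aspp1-/-p53-/- array stood apart and the other 3 were within 0.16 of each other on the log2 scale. The log2 difference against WT was −1.58 with a scanner error of 0.20, and the second, overlapping probe gave −1.75. Ltf encodes lactoferrin, an iron-binding protein of secondary granules. It had a scaled signal of 1.21 in Aspp1-/-p53-/-, 3.86 in p53-/-, 3.87 in Aspp1-/- and 4.59 in WT cells, a 3.78-fold difference between Aspp1-/-p53-/- and WT (log2 −1.92, scanner error 0.20). Lcn2 encodes lipocalin-2, which withholds iron from bacteria by binding their siderophores. It had 1.22 in Aspp1-/-p53-/-, 3.55 in p53-/-, 3.44 in Aspp1-/- and 3.97 in WT cells, with a log2 difference of −1.70 against WT. Ngp encodes neutrophilic granule protein, a cystatin-related protein of mouse secondary granules. It had 0.913 in Aspp1-/-p53-/-, 2.87 in p53-/-, 2.43 in Aspp1-/- and 3.26 in WT cells, with a log2 difference of −1.84 against WT. For all 4 genes the Aspp1-/-p53-/- array was the lowest and the other arrays lay close together.

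**Figure D1:**
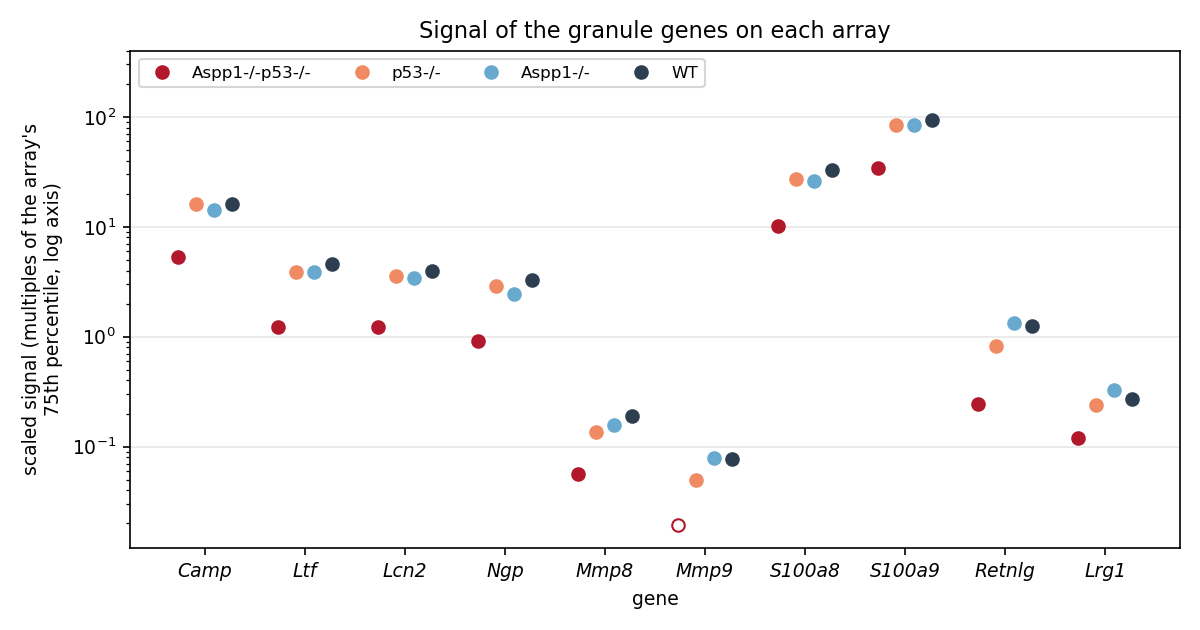
Scaled signal (multiples of the array's 75th percentile, log axis) of each of the 10 genes on the Aspp1-/-p53-/-, p53-/-, Aspp1-/- and WT arrays, 1 point per array, with an open point where the probe was not well above background. The Aspp1-/-p53-/- point is the lowest for the 9 genes with filled points only, as for Camp at 5.35 against 16.0 in WT.

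The metalloproteinases of these granules were dimmer. Mmp8, the neutrophil collagenase of secondary granules, had a scaled signal of 0.0568 in Aspp1-/-p53-/-, 0.135 in p53-/-, 0.156 in Aspp1-/- and 0.192 in WT cells, with a log2 difference of −1.75 against WT and a scanner error of 0.34. Its raw processed signal on the Aspp1-/-p53-/- array was 30.4, close to the lowest signal called well above background there, 22.8. With normexp background correction, which adds an offset of 50 to each signal, Mmp8 was at −0.79 against WT and no longer passed. Mmp9, the gelatinase of tertiary granules, was read by 10 spots per array. The median processed signal of these spots was 10.6 in Aspp1-/-p53-/-, 29.4 in p53-/-, 45.9 in Aspp1-/- and 46.0 in WT cells, and 0, 6, 10 and 10 of the spots were well above background in Aspp1-/-p53-/-, p53-/-, Aspp1-/- and WT cells. Mmp9 thus has only a bound on the Aspp1-/-p53-/- array. It was at least 1.82-fold lower there than in WT (log2 −0.86 or less), taken against the lowest signal of any probe well above background on that array, which leaves it short of the rule.

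**Figure D2:**
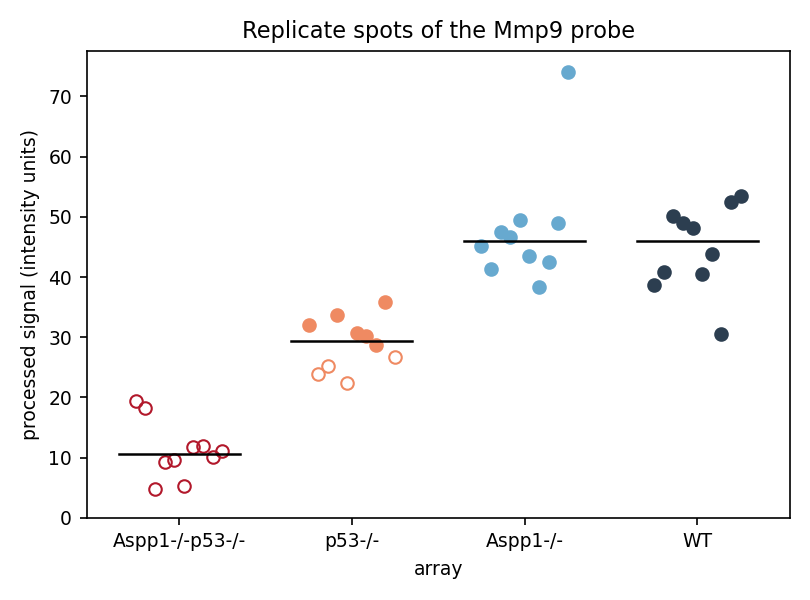
Processed signal (intensity units) of the 10 spots of the Mmp9 probe on each array, with filled points for spots well above background, open points for the others and a line at the median. The spots lie between 4.80 and 19.5 on the Aspp1-/-p53-/- array and between 30.5 and 53.5 on the WT array.

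S100a8 and S100a9 encode the subunits of calprotectin, a calcium- and zinc-binding protein that is stored in the cytosol of neutrophils and not in granules. S100a8 had a scaled signal of 10.1 in Aspp1-/-p53-/-, 27.5 in p53-/-, 26.3 in Aspp1-/- and 32.9 in WT cells, with a log2 difference of −1.70 against WT. S100a9 had 34.5 in Aspp1-/-p53-/-, 85.3 in p53-/-, 84.2 in Aspp1-/- and 94.7 in WT cells, with a log2 difference of −1.46. The scanner error was 0.20 for both, and the subunits differed from WT by a like amount. Retnlg encodes a resistin-like protein of mouse neutrophils. It had 0.243 in Aspp1-/-p53-/-, 0.830 in p53-/-, 1.33 in Aspp1-/- and 1.24 in WT cells, a 5.11-fold difference between Aspp1-/-p53-/- and WT (log2 −2.35, scanner error 0.22). It was the largest difference among the 9 genes measured on both arrays, ahead of Ltf, although with normexp Ltf at −1.87 lay beyond Retnlg at −1.84. It ranked 17th lowest of 13441 named genes well above background on both arrays. Lrg1 encodes a secreted leucine-rich glycoprotein that neutrophils store in granules. It had 0.120 in Aspp1-/-p53-/-, 0.241 in p53-/-, 0.324 in Aspp1-/- and 0.272 in WT cells, with a log2 difference of −1.19 and a scanner error of 0.25, and it was at −0.59 with normexp.

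Loss of Aspp1 where p53 was already lost was read from Aspp1-/-p53-/- against p53-/- cells, on arrays that shared slide row and Mx1-Cre. Again 9 of 10 genes were lower by 2-fold or more, against 3.28% of all genes or transcripts and 0.966% of those well above background on both arrays, and the median was −1.49. Retnlg was at −1.77, Ltf at −1.67, Ngp at −1.65, Camp at −1.58 and Lcn2 at −1.54. S100a8 at −1.44, S100a9 at −1.30, Mmp8 at −1.25 and Lrg1 at −1.01 followed, and Mmp9 was at −0.21 or less. Lrg1 sat at the edge of the rule and moved to −0.97 with quantile normalization and −0.47 with normexp, under which Mmp8 was at −0.44.

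Loss of p53 where Aspp1 was already lost was read from Aspp1-/-p53-/- against Aspp1-/- cells. Here too 9 of 10 genes passed, against 1.93% of all genes or transcripts and 0.974% of those well above background on both arrays, with a median of −1.43. Retnlg was at −2.45, Ltf at −1.67, Lcn2 at −1.49, Mmp8 at −1.46, Lrg1 at −1.44, Camp at −1.43 and Ngp at −1.41. S100a8 was at −1.38, S100a9 at −1.29 and Mmp9 at −0.89 or less. With normexp, Mmp8 was at −0.64 and Lrg1 at −0.77. The comparisons of Aspp1-/-p53-/- cells with p53-/-, Aspp1-/- and WT cells share the Aspp1-/-p53-/- array, so they are not independent of each other.

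The single knockouts differed from WT by amounts mostly near the scanner error. Farthest beyond their error were Retnlg (error 0.21) and Mmp8 (0.24) in p53-/- cells and Ngp (0.20) in Aspp1-/- cells. In p53-/- against WT cells 0 of 10 genes passed the rule, where 1.52% of all genes or transcripts did, and the median was −0.22. The values ran from −0.65 for Mmp9, −0.58 for Retnlg and −0.50 for Mmp8 to 0.00 for Camp, and 9 of 10 lay below 0, against 45.9% of all genes or transcripts. The Mmp9 value had a scanner error of 0.38 and moved to −0.26 with normexp. In Aspp1-/- against WT cells 0 of 10 passed, where 2.15% did, and the median was −0.19. There the values ran from −0.42 for Ngp and −0.32 for S100a8 to 0.10 for Retnlg and 0.25 for Lrg1, and 7 of 10 lay below 0, against 48.4%. Which of the p53-/-, Aspp1-/- and WT arrays was the highest varied by gene: WT for Ltf, Lcn2, Ngp, S100a8, S100a9 and Mmp8, Aspp1-/- for Retnlg, Mmp9 and Lrg1, and p53-/- for Camp. The lead over the next array was less than its scanner error for Lcn2, Ngp, S100a9, Retnlg, Mmp9 and Camp, so the order is not resolved in these genes.

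**Figure D3:**
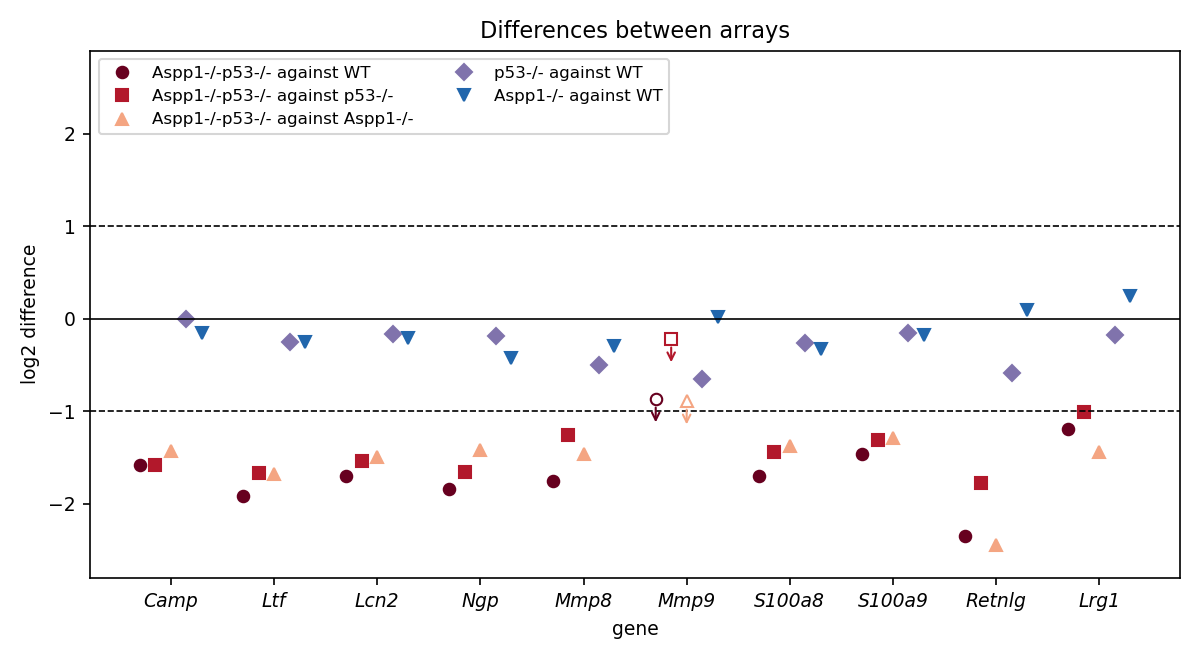
Log2 difference of each gene in the 5 comparisons, with dashed lines at the 2-fold rule and open points with arrows for bounds. Points of the 3 comparisons of Aspp1-/-p53-/- cells lie between −2.45 and −1.01 where measured on both arrays, and those of the single knockouts lie between −0.65 and 0.25.

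The Aspp1-/-p53-/- array was the lowest of the 4 for all 9 genes that were well above background on every array, whereas it was the lowest for 29.3% of 19117 genes or transcripts of that kind. The gap between Aspp1-/-p53-/- and the next array ran from 1.01 for Lrg1 to 1.77 for Retnlg on the log2 scale, while the whole range of the other 3 arrays in these 9 genes ran from 0.16 for Camp to 0.68 for Retnlg. In each of these 9 genes the gap was wider than that range. The Mmp9 gap has only a bound, 0.21 or more, which is narrower than the range of 0.67 of its other 3 arrays.

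The double difference was also larger than the sum of the single ones. If the effects of both losses added on the log2 scale, Camp would be at −0.15 in Aspp1-/-p53-/- against WT cells, and it was measured at −1.58, a shortfall of −1.43. The shortfall was −1.87 for Retnlg, −1.42 for Ltf, −1.33 for Lcn2, −1.26 for Lrg1, −1.23 for Ngp, −1.13 for S100a9, −1.12 for S100a8 and −0.96 for Mmp8. For Mmp9 the bound of −0.86 or less, set against a sum of −0.63, gave a shortfall of −0.24 or less, which does not pass. With normexp the count was 7, with Lrg1 at −0.64 and Mmp8 at −0.29. Thus 8 of the 9 genes well above background on every array lay 2-fold or more below the sum, against 1.05% of 19117 genes or transcripts well above background on all 4 arrays. In this contrast p53 loss, Mx1-Cre and slide row go together, so joint effects of Aspp1 loss with any of them cannot be told apart. The scanner error of a shortfall was 0.29 for Camp and Ltf, and larger for the dimmer Lrg1 (0.33) and Mmp8 (0.42).

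**Figure D4:**
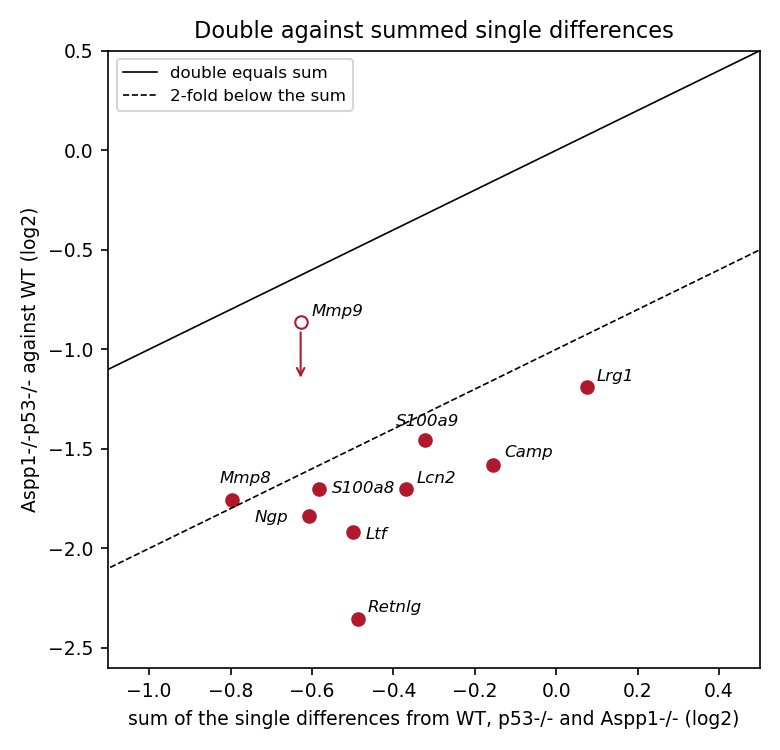
Log2 difference of Aspp1-/-p53-/- against WT cells (vertical) for each gene over the sum of the p53-/- and Aspp1-/- differences from WT (horizontal), with a solid line where both are equal and a dashed line 2-fold below it. The 9 filled points lie below the solid line, with Mmp8 just above the dashed line, and the open point with an arrow is the bound of −0.86 or less for Mmp9, which was not well above background in Aspp1-/-p53-/- cells.

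A fit across genes was made with an additive model of both losses, which leaves 1 residual degree of freedom, and it called none of the 10 genes. With limma and Benjamini-Hochberg adjustment over 22935 genes or transcripts, 0 (0%) had an adjusted p under 0.05 for Aspp1 loss and 0 (0%) for p53 loss, with 1091 and 1725 at an unadjusted p under 0.05, none of them among the 10. The fit called neither targeted gene, although its effect was −2.57 for Ppp1r13b under Aspp1 loss and −2.15 for Trp53 under p53 loss. A lack of calls therefore says nothing about the granule genes. No changed genes were recovered in simulated data either, but their spread was drawn from the same fit, so that outcome adds little. All counts above rest on the size rule.

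Other gene lists were read in the same comparisons. In Aspp1-/-p53-/- against WT cells 2.43% of all genes or transcripts passed the rule. By the probe that represents each gene, 0 of 11 measured primary granule genes did, near that share, with a median of −0.05. Those farthest from 0 were Fcnb (ficolin B) at −0.53, Elane (neutrophil elastase) at −0.37, Srgn (serglycin, the granule proteoglycan) at −0.24, Ctsg (cathepsin G) at 0.23, Cst7 (cystatin F) at 0.21 and Ms4a3 at −0.16. The probes of Fcnb disagreed: its other probe, also well above background on all 4 arrays, passed at −1.29 against WT, −1.22 against p53-/- and −1.16 against Aspp1-/- cells.

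Other genes of late neutrophils were mixed. Of 21 with a value, 4 were lower by 2-fold or more in Aspp1-/-p53-/- against WT cells, against 2.43% of all genes or transcripts, and the median was −0.49. The 4 were Il1b, the interleukin-1β gene, at −1.72, Wfdc21, a whey acidic protein family member, at −1.40, Chil3, a chitinase-like protein, at −1.32, and Fpr2, a formyl peptide receptor, at −1.16 or less. Cd177, a neutrophil surface protein, was at −0.95 or less and Stfa2, a stefin, at −0.92 or less. Ly6g, the surface antigen that defines mouse neutrophils, was named for that role although it lay near 0, at −0.05. Against p53-/- cells 5 of 19 passed, with a median of −0.32, where 3.28% of all did. One of these, Olfm4 (olfactomedin 4) at −2.96 or less, was well above background on the p53-/- array alone and entered only through it. Against Aspp1-/- cells 5 of 22 passed, with a median of −0.25, where 1.93% of all did.

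None of 13 regulators of granule genes passed the rule in Aspp1-/-p53-/- against WT cells, near the 2.43% of all genes or transcripts. Cebpb was at −0.85, Cebpe, which encodes C/EBPε, at −0.54, Runx1 at −0.54, Cebpa at 0.40, Klf5 at −0.17 and Cux1 at 0.13, with a median of −0.01. The probes of Runx1 disagreed: its other probe, also well above background on all 4 arrays, was at −0.02. Cebpe had a scaled signal of 1.83 in Aspp1-/-p53-/-, 2.63 in p53-/-, 2.03 in Aspp1-/- and 2.66 in WT cells. It was at −0.39 in Aspp1-/- and −0.01 in p53-/- against WT cells. In Aspp1-/-p53-/- cells it was at −0.53 against p53-/- and −0.15 against Aspp1-/- cells. The granule genes had medians of −0.19, −0.22, −1.49 and −1.43 in these comparisons, in that order. The part of Cebpe in the granule gene result was not tested.

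Markers of the sorted cells and of other lineages were read on the same arrays. In Aspp1-/-p53-/- against WT cells 2.43% of all genes or transcripts passed the rule, so 0 in a list this short is near that share. Of the LSK markers, 0 of 13 passed, and their median was 0.03. Their summed scaled signal was 100.9% of WT, a sum in which bright probes weigh most. Cd34 alone had 203 in Aspp1-/-p53-/- and 201 in WT cells, where the sum was 387. Hoxa9 at 0.47 was the farthest from 0, followed by Procr at −0.24, Ly6a, which encodes Sca-1, at 0.22, and Hlf at −0.20, and Kit, named because it defines the sort, was at −0.05. Of 15 listed monocyte and macrophage markers 12 were measured, and their median was 0.15. Klf4 alone was lower by 2-fold or more at −1.58, with Adgre1 at −0.61 or less and Ms4a6b at 0.54. The Adgre1 probe was well above background on 2 arrays only. Its other probe, well above background on 1 array, measured 0.94 with no bound set. Eosinophil, basophil and mast cell markers had 2 of 6 lower, the eosinophil granule genes Epx at −1.53 or less and Prg2 at −1.04, which were at −1.32 and −1.31 in p53-/- against WT cells and at −1.68 and −0.77 in Aspp1-/- against WT cells. B cell, erythroid, and T and NK cell markers had 0 of 8, 0 of 8 and 0 of 5 lower by 2-fold or more, and the members farthest from 0 were Igll1 at 0.35, Epor at 0.34 and Klrd1 at −0.64. In RNA of a sorted population, fewer cells of a type and less RNA per cell cannot be told apart.

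Immediate-early genes, whose transcription answers quickly to stimuli such as cell handling, were also lowest as a sum on the Aspp1-/-p53-/- array. In Aspp1-/-p53-/- against WT cells 10 of 15 were lower by 2-fold or more, against 2.43% of all genes or transcripts, and the median was −1.24. Atf3 was at −3.48, Egr3 at −2.56 or less, Klf2 at −1.96, Klf6 at −1.79, Nr4a1 at −1.45, Btg2 at −1.38, Egr2 at −1.36, Zfp36 at −1.24, Ier2 at −1.09 and Fosb at −1.03. Their summed scaled signal was 43.3% of WT in Aspp1-/-p53-/-, 70.8% in p53-/- and 90.8% in Aspp1-/- cells, a sum in which bright probes weigh most. Against p53-/- cells 4 of 14 passed (3.28% of all), with a median of −0.80, and against Aspp1-/- cells 8 of 15 (1.93% of all), with a median of −1.02. In p53-/- against WT cells 2 of 15 passed (1.52% of all), Egr3 at −2.64 or less and Atf3 at −1.78, with a median of −0.43. In Aspp1-/- against WT cells 1 of 15 passed (2.15% of all), Egr3 at −2.54, with a median of −0.07. The part of the immediate-early genes in the granule gene result was not tested.

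**Figure D5:**
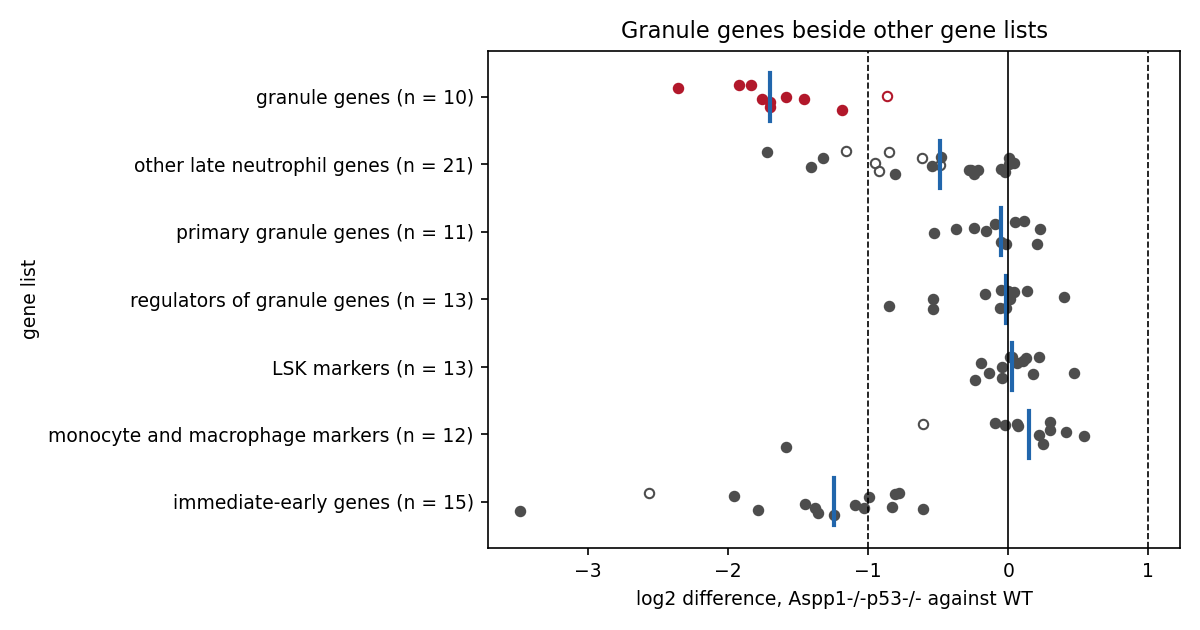
Log2 difference of Aspp1-/-p53-/- against WT cells for the members of 7 gene lists, with 1 point per gene, open points for bounds, a blue line at each list's median and dashed lines at the 2-fold rule. The 10 granule genes have a median of −1.70 and the immediate-early genes one of −1.24, while the primary granule genes centre on −0.05 and the LSK markers on 0.03.

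The genes whose pattern over the 4 arrays was nearest to the median pattern of the granule genes were found by root mean square distance of centred log2 values, among 13308 named genes well above background on every array. The nearest outside the 10 was Nrarp, a feedback inhibitor of Notch signalling, at a distance of 0.057. It was followed by Il10, the interleukin-10 gene, at 0.063, Iqsec3 at 0.072, Itgb2l, an integrin beta subunit, at 0.089, the histone gene H2ac18 at 0.12 and Ccl4, a chemokine gene, at 0.13. Wfdc21, Pabpn1l, Rpl3l and Thbs1 followed, between 0.14 and 0.16. Nrarp had a scaled signal of 0.152 in Aspp1-/-p53-/-, 0.407 in p53-/-, 0.386 in Aspp1-/- and 0.476 in WT cells. Among the 10 genes themselves S100a8 was the closest to their shared median at 0.045 and Retnlg the farthest at 0.35.

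Chromosomal neighbours of the granule genes were read in the same way. Of 144 other named genes within 500 kb of a member on mm9, 2 were lower and 2 higher by 2-fold or more in Aspp1-/-p53-/- against WT cells, and the median was 0.03. This is 1.39% on the low side. The share of all genes or transcripts, unnamed ones included, was 2.43%, or 1.46% of those well above background on both arrays, so the sets are not alike. The lower pair was S100a3, a calcium-binding protein gene of the S100 cluster near S100a8 and S100a9, at −3.31, and Shd near Lrg1 at −1.13, both named after their values were seen. Around Camp, Ngp and Ltf the lowest neighbours were Cspg5 at −0.29, Kif9 at −0.30 and Ccrl2 at −0.26.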

How the data were processed

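Arrays were 1-colour, with mm9 probe positions, and Agilent Feature Extraction 10.7.3.1 gave spot intensity, per the file headers. The deposited processed intensity is background-subtracted, detrended and linear, and not normalised between arrays. The deposited flags (other values of 0 or 1) mark spots well above background. The authors' deposited table holds log2 values, which gave the same differences between arrays (r = 1 over 26465 probes), centred per probe on its median. Its column medians were 0.0478 for Aspp1-/-p53-/-, 0.0267 for p53-/-, −0.0422 for Aspp1-/- and −0.0661 for WT, and the origin of each array's constant stays unknown.

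After control and outlier spots were dropped, probes were averaged over their spots and log2 intensity was set relative to each array's 75th percentile (535 for Aspp1-/-p53-/-, 580 for p53-/-, 597 for Aspp1-/-, 570 for WT). A gene was represented by its brightest probe well above background on at least 1 array. Probes were named through RefSeq accession (26760) or symbol (3818), and 25097 had no RefSeq gene. With 1 array per genotype the rule was a log2 difference of 1 or more in size. Where the dimmer array was not well above background, the difference is a bound. An additive fit used limma 3.58.1 in R 4.3.3. It did not recover changed genes in simulated data, whose spread was drawn from the fit itself. The number of arrays limits the precision.

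Groups came from genotype labels and titles. Alternatives were normexp, quantile normalization, median scaling, a limit to probes that passed background on every array, the mean over probes and the deposited table. The genes and lists were chosen with earlier results of these data known. Named from each list were the up to 6 members with the largest differences in Aspp1-/-p53-/- against WT cells and any past 2-fold, and 10 genes by likeness of pattern, except that fewer are named of the marker lists and that Kit, Ly6g, Olfm4, S100a3, Shd and the lowest neighbours were named outside the rule.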

Additional observations from a re-analysis of the deposited data

Results flagged for a closer look

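Effects of one loss that pointed in opposite directions with and without the other gene were found in 4 granule genes, and none of these differences was tested, since each rests on 4 single arrays. Retnlg was at −1.77 for Aspp1 loss without p53 and at 0.10 with p53, a difference of −1.87. Lrg1 was at −1.01 for Aspp1 loss without p53 and 0.25 with p53, a difference of −1.26, with a scanner error of 0.21 for the value with p53. Mmp9 was at −0.21 or less for Aspp1 loss without p53 and at 0.02 with p53, a difference of −0.24 or less, and with normexp both signs turned, to 0.07 without p53 and −0.05 with p53. Camp was at −1.43 for p53 loss without Aspp1 and at 0.00 with Aspp1, a difference of −1.43. With Aspp1 present, Camp was at −0.02 with normexp, −0.06 with the mean over probes and −0.13 on its second probe, so its opposite direction was lost there, as it was with the deposited table. The effects with the other gene present were within the scanner error of 0 for Retnlg, Mmp9 and Camp.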

How the results depend on the processing

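In the 5 comparisons, the counts of granule genes past 2-fold stayed within 1.5 times of the reported values under all 6 alternatives. Their medians stayed within the scanner error. Some alternatives could move little. The deposited table holds the same differences between arrays, and median scaling shifts each array by a constant. Among the granule genes, the mean over probes alters only Camp and Mmp9, and the limit to probes above background on every array drops only Mmp9. Run under the same alternatives after the data were seen, the count 2-fold or more below the sum of single differences was 7 with normexp and 8 otherwise, and the count lowest on the Aspp1-/-p53-/- array was 9 of 9 throughout. The count lower by 2-fold or more ran from 7, with normexp, to 10 in each comparison of Aspp1-/-p53-/- cells. It was 0 in both single-knockout comparisons. Of 295 values of single genes under alternatives, 16 moved by more than their scanner error. With normexp, Mmp8 and Lrg1 left the 2-fold rule in all 3 comparisons of Aspp1-/-p53-/- cells, and Retnlg was at −1.84 against WT. Averaging the probes or using the deposited table sets no bound, and Mmp9 was then at −2.02 and −2.01 against WT. Mmp9 in Aspp1-/-p53-/- against p53-/- cells, a bound of −0.21, was at 0.07 with normexp. The additive fit called 0 members under every alternative. No paired analysis was possible because each genotype has 1 array, and for the same reason no replicate could be left out. Genes with low signal, Mmp9, Mmp8 and Lrg1, were limited by signal over background.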
